A study of Mus musculus with 4 samples.

Results

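The mitochondrial carrier family, Slc25 with its uncoupling protein branch, was taken as the protein-coding genes of the deposited table whose symbol starts with Slc25a, plus Ucp1, Ucp2 and Ucp3. This gave 44 of the 37819 genes in the table. Of these, 17 reached 10 or more counts in at least 1 of the 4 libraries and are described singly. The other 27 stayed under 10 counts in every library and are summed, and 4 of them had 0 counts throughout. The libraries hold total RNA of liver mitochondria after ribosomal RNA depletion, 1 library for each group of mice, all at postnatal week 7. The ob mice are B6.Cg-Lepob/J, which lack functional leptin. The NASH mice are labelled wild type with non-alcoholic steatohepatitis on C57BL/6J, and the sources used here do not say which diet or treatment lies behind it. The db mice carry the genotype label BKS.Cg-Dock7m+/+Leprdb/J, that is, a leptin receptor mutation together with a Dock7m marker allele on a BKS background, although the strain label reads C57BL/6J for every group. The reference is wild type C57BL/6J. The series compares RNA of liver mitochondria between metabolic disease models. How the mitochondria were purified, and how many animals went into a library, are not stated there either.

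Mitochondrial carriers are small proteins of the inner mitochondrial membrane that exchange metabolites, nucleotides, cofactors and ions between the cytosol and the matrix. They are encoded in the nucleus, made on cytosolic ribosomes and inserted through the carrier branch of the import machinery. In liver they link the matrix to the urea cycle, to fatty acid synthesis and gluconeogenesis through di- and tricarboxylates, to fatty acid oxidation and to ATP export. An mRNA of this family is thus not made inside mitochondria, unlike the transcripts of mtDNA.

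The libraries differed in depth, and this limits every value below. Library totals ran from 529815 counts in NASH to 1005915 in db. Nuclear features that resemble mtDNA genes took 28.7% of counts in ob, 75.5% in NASH, 26.3% in db and 53.2% in wild-type. Levels are counts per 1000000 of the library after trimmed-mean (TMM) scaling, written CPM. A single count is worth 0.664 CPM in ob, 2.05 in NASH, 0.947 in db and 2.32 in wild-type. A gene with 0 counts may stand at up to 1.99 CPM in ob, 6.15 in NASH, 2.84 in db and 6.95 in wild-type, which is 3 counts. The defining genes of hepatocytes were present in all libraries, with a summed level over 9 markers (Alb, Ttr, Cps1 and others) of 36254 CPM in ob, 6032 in NASH, 117253 in db and 48863 in wild-type. Nuclear-retained RNAs, led by Neat1 and Malat1, summed to 9475 CPM in ob, 178 in NASH, 364 in db and 239 in wild-type, so the ob library stood apart. With 1 library per group there is no test across animals. Ranges in parentheses are exact 95% intervals. They cover the error of counting alone, so they set one library against another rather than one condition against another. Folds are ratios of scaled counts, and a member is called higher or lower where log2(CPM + 1) differed by at least 1, which is 2-fold. Where a library had 0 counts, the fold is written "at least" and sets that library to 3 counts. It takes the count of the other library as exact, so it has no counting interval. In RNA of a whole organ fraction, fewer cells of a type and less RNA per cell cannot be told apart.

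The summed carrier family lay within counting error of wild-type in all 3 models, while its make-up differed between libraries. It held 551 counts in ob, 158 in NASH, 396 in db and 133 in wild-type. On the scaled level this was 366 CPM in ob (336 to 398), 324 in NASH (275 to 379), 375 in db (339 to 414) and 308 in wild-type (258 to 365). Against wild-type the summed level was 1.19-fold in ob (0.981 to 1.45), 1.05-fold in NASH (0.829 to 1.33) and 1.22-fold in db (0.997 to 1.49), and all 3 intervals include 1. Under plain library totals the sum was 2.60-fold in ob and 1.86-fold in db. Under TMM scaling, all protein-coding genes outside the features resembling mtDNA genes were by their sum 1.32-fold lower in ob, 2.83-fold lower in NASH and 1.54-fold higher in db. Over plain library totals that sum was higher in ob than in wild-type, with 400927 of 1000306 counts against 152055 of 627890. As a share of those protein-coding counts, the family took 0.137% in ob (0.126 to 0.149), 0.260% in NASH (0.221 to 0.303), 0.0690% in db (0.0623 to 0.0761) and 0.0875% in wild-type (0.0732 to 0.104). At least 1 count was seen for 38 members in ob, 22 in NASH, 32 in db and 28 in wild-type. At least 10 counts were reached by 17 members in ob, 4 in NASH, 13 in db and 4 in wild-type.

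A different carrier led each library, apart from Ucp2 in NASH and wild-type. Ucp2 took 3.63% of the family's counts in ob (2.23 to 5.55), 35.4% in NASH (28 to 43.4), 4.04% in db (2.33 to 6.48) and 18.8% in wild-type (12.5 to 26.5). Slc25a10 took 13.6% in ob (10.9 to 16.8), 5.70% in NASH (2.64 to 10.5), 6.57% in db (4.33 to 9.47) and 0.752% in wild-type (0.0190 to 4.12). Slc25a39 took 7.62% in ob (5.55 to 10.2), 8.23% in NASH (4.45 to 13.7), 18.7% in db (15 to 22.9) and 14.3% in wild-type (8.83 to 21.4). By count, Slc25a10 ranked first in ob, Ucp2 in NASH, Slc25a39 in db and Ucp2 in wild-type. These shares are taken within a library, so no scaling between libraries enters them. The sum over the family also hides opposed members. Without Ucp2, the rest of the family was 1.41-fold higher in ob (1.14 to 1.75), 1.2-fold lower in NASH (0.905 to 1.58) and 1.44-fold higher in db (1.16 to 1.80) than in wild-type.

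**Figure D1:**
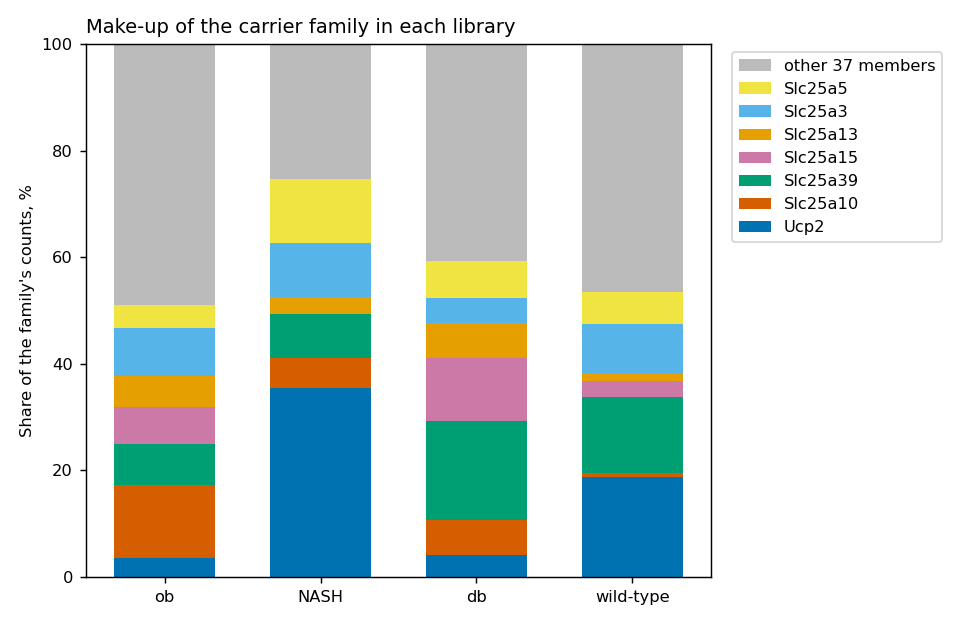
Share of the carrier family's counts (y axis, percent of the family's counts in that library) taken by 7 members and by the other 37 together, in the ob, NASH, db and wild-type libraries. Ucp2 takes 35.4% in NASH and 18.8% in wild-type, against 3.63% in ob and 4.04% in db, while the Slc25a10 segment is widest in ob at 13.6% and narrowest in wild-type at 0.752%.

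Of the 17 members with 10 or more counts, 5 were at least 2-fold higher in ob than in wild-type and 2 lower. Over all 5347 features tested, the same call took in 34.5% as higher in ob and 15.5% as lower. In NASH 4 members were higher and 6 lower, where 20.3% of all features were higher and 31.8% lower. In db 7 members were higher and 3 lower, where 28.8% of all features were higher and 21.5% lower. Members had a median log2 fold of 0.66 (ob), -0.64 (NASH) and 0.49 (db), beside medians over all features of 0.41, -0.14 and 0.11 for the same models. The filter shaped these counts. All 17 members reached 10 counts in ob, and 4 of them (Slc25a12, Slc25a37, Slc25a42 and Slc25a46) in ob only, so the counts of members called support nothing beyond the single values. Under plain library totals, 11 members were higher and 0 lower in ob (61.6% and 4.66% of all features), 7 higher and 5 lower in NASH (27.3% and 25.8%), and 9 higher and 3 lower in db (39.2% and 11.8%). With the ob library left out of scaling and filter, 13 members were tested. Of these, 6 were higher and 3 lower in NASH (24% and 31.3% of all features), and 7 higher and 1 lower in db (29.6% and 21.2%). The 3 comparisons share the wild-type library, so a low or high count there moves all of them together. Slc25a17, Slc25a3 and Slc25a39 were called in none of the 3 comparisons, while Slc25a10, Slc25a15, Slc25a44 and Slc25a46 were called in all of them, Slc25a15 higher in ob and db and lower in NASH. Under plain totals and under the submitters' scaling, Slc25a39 was also called higher in db.

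**Figure D2:**
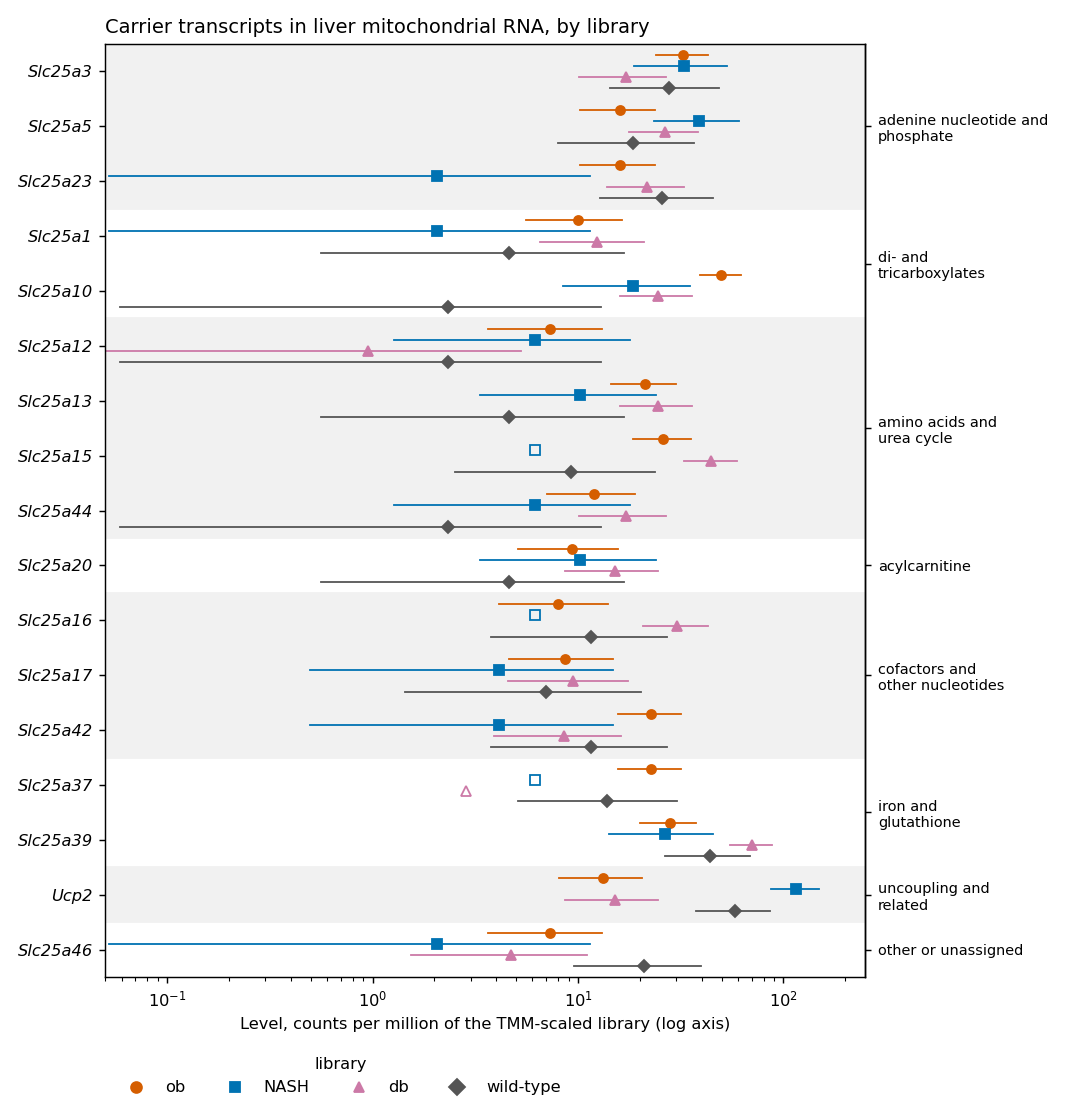
Level of each of the 17 single members (x axis, CPM on a log axis) in the ob, NASH, db and wild-type libraries, grouped by transported substrate, with exact 95% counting intervals as bars (cropped at the left edge) and open symbols at the 3-count limit where a library had 0 counts. Ucp2 in NASH is the highest point at 114.8 CPM, and the wild-type point of Slc25a10 at 2.32 CPM lies left of the other 3.

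**Figure D3:**
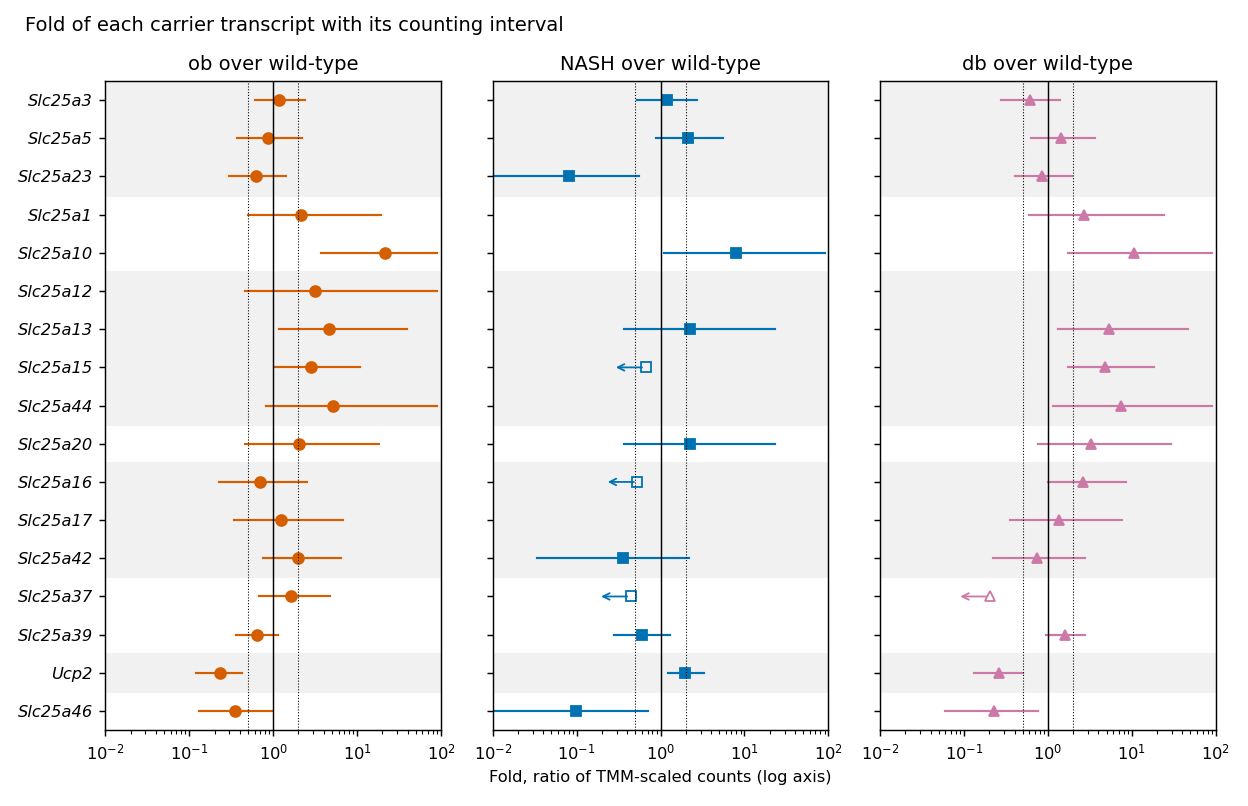
Fold over wild-type (x axis, ratio of scaled counts on a log axis) of the same members in ob, NASH and db, with exact 95% counting intervals, cropped at the panel edge. Dotted lines mark 2-fold in each direction, open symbols with arrows are bounds where the model had 0 counts, and members with both libraries at or under 3 counts have no point. Slc25a10 lies right of 1 in all 3 panels, and Ucp2 lies left of 1 in ob and db and right of it in NASH.

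The plot of levels shows how few members stand clear of the counting error, and the plot of folds shows which intervals exclude 1. Among members called higher, the interval excluded 1 for Slc25a10, Slc25a13 and Slc25a15 in ob, for Slc25a10 in NASH, and for Slc25a10, Slc25a13, Slc25a15, Slc25a16 and Slc25a44 in db. Among members called lower, it excluded 1 for Ucp2 and Slc25a46 in ob, for Slc25a23 and Slc25a46 in NASH, and for Ucp2 and Slc25a46 in db. No interval was taken where the model had 0 counts, so Slc25a15, Slc25a16 and Slc25a37 in NASH and Slc25a37 in db are not sorted here. The same holds for Slc25a12 and Slc25a44 in NASH, where both libraries were at or under 3 counts.

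The promoters of Slc25a10, Slc25a13 and Ucp2 are shown as examples of members whose fold interval excluded 1 in both ob and db, the first pair higher and Ucp2 lower. Each is the stretch of 229 bases that ends 21 bases before the RefSeq start, in GRCm38.p6 (the mm10 build), read 5′ to 3′ on the gene's strand. They lie at chr11:120491587-120491815 (plus strand), chr6:6217195-6217423 (minus strand) and chr7:100493108-100493336 (plus strand). Capitals mark a match to a searched motif.
Slc25a10: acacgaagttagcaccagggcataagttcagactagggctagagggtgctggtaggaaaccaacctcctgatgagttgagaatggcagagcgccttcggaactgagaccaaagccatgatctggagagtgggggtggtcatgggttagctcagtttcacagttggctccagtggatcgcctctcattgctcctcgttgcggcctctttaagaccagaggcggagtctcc
Slc25a13: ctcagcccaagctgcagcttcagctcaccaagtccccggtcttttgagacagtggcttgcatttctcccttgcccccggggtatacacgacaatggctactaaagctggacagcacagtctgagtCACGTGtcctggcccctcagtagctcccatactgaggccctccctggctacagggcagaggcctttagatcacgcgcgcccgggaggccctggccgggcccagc
Ucp2: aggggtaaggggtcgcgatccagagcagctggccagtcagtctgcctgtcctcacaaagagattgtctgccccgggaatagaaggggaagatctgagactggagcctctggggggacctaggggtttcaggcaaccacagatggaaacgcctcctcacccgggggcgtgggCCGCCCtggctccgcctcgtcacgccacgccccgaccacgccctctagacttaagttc
Slc25a10 has none of the 4 motifs searched, Slc25a13 has 1 E-box core, and Ucp2 has 1 GC box on the opposite strand. Their GC content is 54.6%, 62.0% and 63.3%. The motifs were the E-box core CACGTG, which reads the same on both strands, the CCAAT box (CCAAT or ATTGG), the GC box (GGGCGG or CCGCCC) and the TATA box (TATAAA or TTTATA), and no motif contains another. RefSeq promoters matched 34 of the 44 members. An E-box core was in 5 of these (Slc25a1, Slc25a13, Slc25a14, Slc25a31 and Slc25a36) and in 5.32% of all 27025 promoters of the same length. A GC box was in 19 and in 29.7% of all promoters, a CCAAT box in 13 and in 32.7%, and a TATA box in 1 (Slc25a18) and in 12.3%. A match is a description of the letters in the window only.

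Carriers of di- and tricarboxylates showed the widest gap to wild-type of any role. The 4 of them (Slc25a1, Slc25a10, Slc25a11 and Slc25a21) summed to 71.1 CPM in ob, 30.8 in NASH, 46.4 in db and 6.95 in wild-type. This was 10.2-fold higher in ob (3.40 to 50.3), 4.42-fold higher in NASH (1.25 to 23.8) and 6.67-fold higher in db (2.15 to 33.5), against 3 counts in the wild-type library. Slc25a10 is the dicarboxylate carrier, which exchanges malate or succinate for phosphate and supplies carbon to gluconeogenesis and fat synthesis (ENSMUSG00000025792, mm10 chromosome 11, 120491840 to 120499187, plus strand). It stood at 49.8 CPM in ob (75 counts), 18.5 in NASH (9 counts), 24.6 in db (26 counts) and 2.32 in wild-type (1 count). All 3 models were above wild-type, with ob highest. The fold was 21.5 in ob (3.74 to 860), 7.96 in NASH (1.10 to 349) and 10.6 in db (1.74 to 435), and the width comes from the single wild-type count. Between models, Slc25a10 in db was 2.02-fold lower than in ob (1.28 to 3.29), and in NASH 2.70-fold lower than in ob (1.35 to 6.13). An antisense gene, Gm11788, overlaps it and had 1 count in ob and 0 in the other libraries.

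Slc25a1 is the citrate carrier, which exports citrate for cytosolic acetyl-CoA and so for fatty acid and cholesterol synthesis. It had 15 counts in ob, 1 in NASH, 13 in db and 2 in wild-type, or 9.96, 2.05, 12.3 and 4.64 CPM in those libraries. It was called higher in db, 2.66-fold (0.601 to 24.2), and the interval includes 1. Slc25a11, the oxoglutarate carrier of the malate-aspartate shuttle, had 9 counts in ob, 5 in NASH, 6 in db and 0 in wild-type. Slc25a21, the oxodicarboxylate carrier of lysine and tryptophan breakdown, had 8 counts in ob, 0 in NASH, 4 in db and 0 in wild-type. Both stayed under 10 counts, and neither had a count in wild-type.

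Carriers of amino acids and of the urea cycle were higher in ob and db by their sum, and mixed in NASH. Their 8 members summed to 73.7 CPM in ob, 22.6 in NASH, 88.0 in db and 23.2 in wild-type. The fold of the sum was 3.18 in ob (1.67 to 6.82) and 3.80 in db (1.98 to 8.18), and 1.03-fold lower in NASH (0.391 to 2.66). Of the 4 members tested, ob had 4 called higher and 0 lower, NASH 2 higher and 1 lower, and db 3 higher and 0 lower. Over all features tested, 34.5% were higher and 15.5% lower in ob, 20.3% and 31.8% in NASH, and 28.8% and 21.5% in db. All 4 members passed the filter through ob alone or through ob and db, so these calls support nothing beyond the single values. Slc25a15 is the ornithine carrier ORC1, which brings ornithine into the matrix for the urea cycle. It stood at 25.9 CPM in ob (39 counts), 44.5 in db (47 counts) and 9.27 in wild-type (4 counts), and NASH had 0 counts. It was 2.79-fold higher in ob (1.01 to 10.8), at least 1.51-fold lower in NASH and 4.8-fold higher in db (1.75 to 18.3) than in wild-type. The NASH value takes the 4 wild-type counts as exact. Between the models, NASH was at least 4.21-fold lower than ob and at least 7.23-fold lower than db. Slc25a13 is citrin, the aspartate-glutamate carrier of liver that supplies aspartate to the urea cycle and takes part in the malate-aspartate shuttle. It stood at 21.3 CPM in ob (32 counts), 10.3 in NASH (5 counts), 24.6 in db (26 counts) and 4.64 in wild-type (2 counts). It was 4.59-fold higher in ob (1.17 to 39.5), 2.21-fold in NASH (0.362 to 23.2) and 5.31-fold higher in db (1.33 to 46.2).

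Slc25a12 is aralar, the aspartate-glutamate carrier of muscle and brain, and it was low throughout, with 11 counts in ob, 3 in NASH, 1 in db and 1 in wild-type. Per kilobase of the longest coding transcript, Slc25a13 was above Slc25a12 in each library, 5.92-fold in ob (2.91 to 13), 3.39-fold in NASH (0.660 to 21.8), 52.9-fold in db (8.69 to 2169) and 4.07-fold in wild-type (0.212 to 240). Slc25a44, which carries branched-chain amino acids, had 18 counts in ob, 3 in NASH, 18 in db and 1 in wild-type. It was 5.16-fold higher in ob (0.814 to 215) and 7.35-fold higher in db (1.16 to 306). Slc25a12 and Slc25a44 are also called higher in NASH on log2(CPM + 1), by 1.11 each, but both libraries were at or under 3 counts there and no fold is given. Under TMM scaling, the summed hepatocyte markers were higher together with this group in db and not in ob. By their sum, the 9 markers were 1.35-fold lower in ob (1.33 to 1.37), 8.10-fold lower in NASH (7.79 to 8.42) and 2.40-fold higher in db (2.36 to 2.44). Singly, 2 markers were called higher and 2 lower in ob, 0 higher and 8 lower in NASH, and 6 higher and 0 lower in db. In ob the 2 higher were Cps1 and Hnf4a and the 2 lower Apoa1 and Fgb, with a median log2 fold of 0.093 over the 9 markers. Alb alone gave 28171 of the 36254 CPM in ob. Over plain library totals the marker sum was higher in ob than in wild-type, with 54587 of 1000306 counts against 21083 of 627890. The marker sum was not put through the remaining scalings. The part of hepatocyte RNA in the carrier values was not tested.

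**Figure D4:**
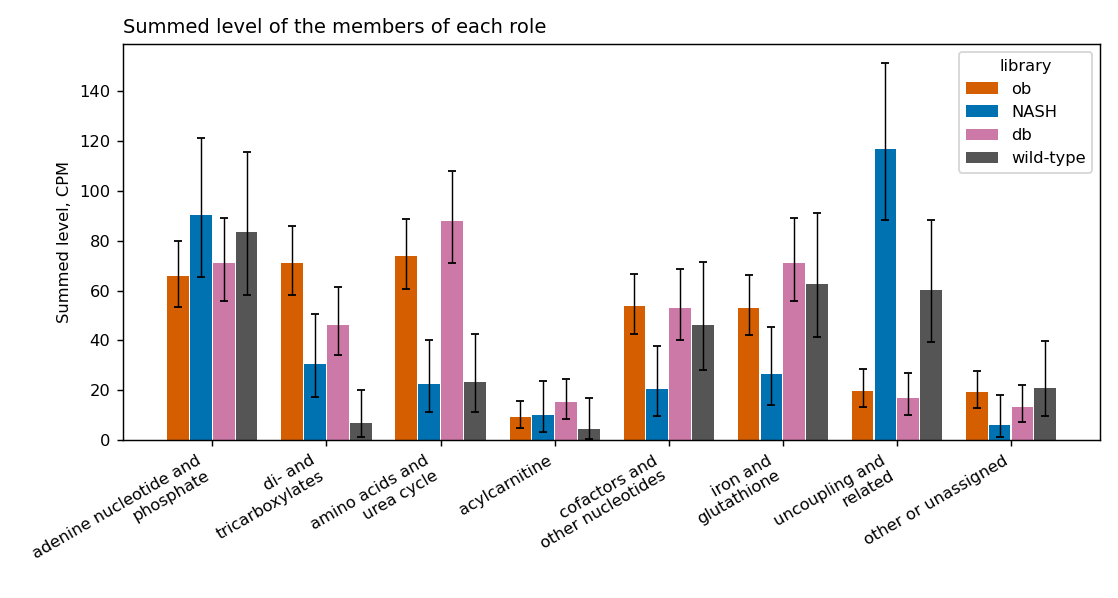
Summed level of all members of each role (y axis, CPM, from 0) in the ob, NASH, db and wild-type libraries, with exact 95% counting intervals as error bars. Bars of di- and tricarboxylate carriers stand at 71.1, 30.8 and 46.4 CPM in ob, NASH and db against 6.95 in wild-type, amino acid carriers stand at 73.7 CPM in ob and 88.0 in db against 23.2 in wild-type, and the uncoupling group is highest in NASH at 117 CPM.

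The plot of summed levels by role places these groups beside the carriers of adenine nucleotides and phosphate, whose sum differed little under TMM scaling. Their 7 members summed to 65.8 CPM in ob, 90.2 in NASH, 71.0 in db and 83.4 in wild-type. That is 1.27-fold lower in ob (0.841 to 1.88), 1.08-fold in NASH (0.680 to 1.73) and 1.18-fold lower in db (0.767 to 1.77). Over plain library totals this sum was higher than in wild-type in ob, with 99 of 1000306 counts against 36 of 627890. In db it was higher too, at 75 of 1005915. Otherwise the sums by role were not put through other scalings. In NASH this sum holds opposed members, Slc25a5 called higher and Slc25a23 called lower. Slc25a3, the phosphate carrier that feeds ATP synthase, stood at 32.5 CPM in ob (49 counts), 32.8 in NASH (16 counts), 17 in db (18 counts) and 27.8 in wild-type (12 counts). No fold of Slc25a3 against wild-type reached 2, and db was 1.91-fold lower than ob (1.09 to 3.48). The small nucleolar RNA gene SNORA53 lies within it on the same strand, with 13 counts in ob, 0 in NASH, 1 in db and 3 in wild-type.

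Slc25a5 is the adenine nucleotide translocator ANT2, which exchanges matrix ATP for cytosolic ADP. It stood at 15.9 CPM in ob (24 counts), 39 in NASH (19 counts), 26.5 in db (28 counts) and 18.5 in wild-type (8 counts). NASH was highest, 2.1-fold above wild-type (0.878 to 5.55) and 2.44-fold above ob (1.27 to 4.65). Slc25a4, the translocator ANT1 of heart and muscle, had 2 counts in ob, 5 in NASH, 3 in db and 3 in wild-type. Per kilobase, Slc25a5 was 18.6-fold above Slc25a4 in ob (4.63 to 163), 5.90-fold in NASH (2.13 to 20.2), 14.5-fold in db (4.48 to 74.5) and 4.14-fold in wild-type (0.994 to 24.2). Slc25a23, a calcium-dependent carrier of ATP-Mg and phosphate, had 24 counts in ob, 1 in NASH, 23 in db and 11 in wild-type. It was 12.4-fold lower in NASH than in wild-type (1.81 to 535), while ob was 1.60-fold lower (0.707 to 3.39) and db 1.17-fold lower (0.515 to 2.5). The plus-strand gene Crb3 overlaps Slc25a23 and had 1 count in ob, 0 in NASH, 3 in db and 0 in wild-type.

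Slc25a20, the carnitine-acylcarnitine carrier that brings long-chain acyl groups into the matrix for oxidation, had 14 counts in ob, 5 in NASH, 16 in db and 2 in wild-type. Its level was 9.30 CPM in ob, 10.3 in NASH, 15.1 in db and 4.64 in wild-type. Each model was above wild-type, 2.01-fold in ob (0.461 to 18.2), 2.21-fold in NASH (0.362 to 23.2) and 3.27-fold in db (0.768 to 29.3), and all 3 intervals include 1.

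Carriers of cofactors and other nucleotides were lowest in NASH. The 8 members summed to 53.8 CPM in ob, 20.5 in NASH, 53.0 in db and 46.4 in wild-type, which is 2.26-fold lower in NASH than in wild-type (1.01 to 5.41), and 1.16-fold in ob (0.705 to 2.0) and 1.14-fold in db (0.676 to 2.01). Slc25a16, whose substrate is linked to coenzyme A, stood at 7.97 CPM in ob (12 counts), 30.3 in db (32 counts) and 11.6 in wild-type (5 counts), and NASH had 0 counts. It was at least 1.88-fold lower in NASH and 2.61-fold higher in db (1.01 to 8.59) than in wild-type, and db was 3.80-fold above ob (1.91 to 8.10). Slc25a42, which carries coenzyme A in exchange for adenine nucleotides, had 34 counts in ob, 2 in NASH, 9 in db and 5 in wild-type. It was highest in ob, with db 2.65-fold below ob (1.24 to 6.28) and NASH 5.51-fold below ob (1.41 to 47.3). Slc25a17, a carrier of the peroxisomal membrane rather than the mitochondrial one, had 13 counts in ob, 2 in NASH, 10 in db and 3 in wild-type, with no call.

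The carriers tied to iron and glutathione differed among themselves. Slc25a39, which imports glutathione into mitochondria (ENSMUSG00000018677, mm10 chromosome 11, 102402985 to 102407946, minus strand), stood at 27.9 CPM in ob (42 counts), 26.7 in NASH (13 counts), 70.1 in db (74 counts) and 44 in wild-type (19 counts). The db library was highest, and ob and NASH lay near each other. Against wild-type the fold was 1.58-fold lower in ob (0.867 to 2.77), 1.65-fold lower in NASH (0.774 to 3.64) and 1.59-fold higher in db (0.951 to 2.79). Between models, db was 2.51-fold above ob (1.70 to 3.76), and NASH was 2.63-fold below db (1.45 to 5.17). Its paralogue Slc25a40 had 1 count in ob, 0 in NASH, 0 in db and 1 in wild-type. By level per kilobase, Slc25a39 was the highest member in db at 41.6 CPM per kilobase, with Slc25a5 next at 21.4, and in wild-type at 26.1, with Slc25a3 next at 17.3. In ob Slc25a10 led at 24.6 CPM per kilobase, and in NASH Slc25a5 at 31.4.

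Slc25a37 is mitoferrin-1, which brings iron into mitochondria and serves heme synthesis in developing red cells. It had 34 counts in ob, 0 in NASH, 0 in db and 6 in wild-type, or 22.6 CPM in ob and 13.9 in wild-type. NASH was at least 2.26-fold lower and db at least 4.90-fold lower than wild-type, ob was 1.62-fold higher (0.674 to 4.73), and db was at least 7.95-fold lower than ob. By their sum, markers of red cells were also higher in ob and lower in NASH and db than in wild-type, though the ob interval of Slc25a37 includes 1. The 6 erythroid markers summed to 1803 CPM in ob, 22.6 in NASH, 38.8 in db and 169 in wild-type, with 5 of the 5 tested at least 2-fold higher in ob, 5 lower in NASH and 4 lower in db, and members at 0 counts numbering 0 in ob, 2 in NASH, 1 in db and 0 in wild-type. The same calls took in 34.5% of all features as higher in ob, 31.8% as lower in NASH and 21.5% as lower in db. Alas2, the first enzyme of heme synthesis in red cells, had 43 counts in ob, 0 in NASH, 3 in db and 1 in wild-type. It was not called in db. The part of erythroid RNA in the Slc25a37 values was not tested. Slc25a28, the mitoferrin of other cells, had 3 counts in ob, 0 in NASH, 1 in db and 1 in wild-type.

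Ucp2 was the only one of Ucp1, Ucp2 and Ucp3 with any count, and it was higher in NASH and lower in ob and db than in wild-type. It encodes uncoupling protein 2, a carrier reported to export metabolites such as malate and aspartate from the matrix, which is abundant in macrophages and low in healthy hepatocytes (ENSMUSG00000033685, mm10 chromosome 7, 100493337 to 100502020, plus strand). It stood at 13.3 CPM in ob (20 counts), 114.8 in NASH (56 counts), 15.1 in db (16 counts) and 57.9 in wild-type (25 counts). NASH was highest, and ob and db lay together below wild-type. Ucp2 was 4.36-fold lower in ob (2.33 to 8.28), 1.98-fold higher in NASH (1.22 to 3.31) and 3.83-fold lower in db (1.96 to 7.67). The NASH difference was 0.97 on log2(CPM + 1), just under the 2-fold call. NASH was 8.64-fold above ob (5.11 to 15.2) and 7.58-fold above db (4.29 to 14.2).

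Ratios within a library need no scaling. Both ratios of Ucp2 were lower in ob and db than in wild-type, but they differed for NASH. Over Slc25a39, Ucp2 was highest in NASH, and the intervals of ob and wild-type overlap. Over Slc25a10 it was highest in wild-type, where Slc25a10 had 1 count. Slc25a10 was itself higher in all 3 models, so the ratio over it cannot place Ucp2 against wild-type. Per kilobase, Ucp2 over Slc25a39 was 0.201 in ob (0.112 to 0.350), 1.82 in NASH (0.983 to 3.63), 0.0914 in db (0.0497 to 0.158) and 0.556 in wild-type (0.294 to 1.07). Ucp2 over Slc25a10 was 0.135 in ob (0.0782 to 0.224), 3.16 in NASH (1.55 to 7.26), 0.312 in db (0.156 to 0.604) and 12.7 in wild-type (2.08 to 521). Macrophage markers moved with Ucp2 in NASH. The 18 of them summed to 638 CPM in ob, 2321 in NASH, 709 in db and 575 in wild-type, and in NASH 15 were at least 2-fold higher than in wild-type, none was lower, and the sum was 4.04-fold higher (3.52 to 4.65). Of all features tested, 20.3% were higher and 31.8% lower in NASH. Macrophage markers at 0 counts numbered 0 in ob, 0 in NASH, 1 in db and 2 in wild-type. In ob and db, where Ucp2 was lower, the macrophage sum was 1.11-fold (0.965 to 1.28) and 1.23-fold (1.07 to 1.43) that of wild-type. The part of macrophage RNA in the Ucp2 values was not tested. Ucp1, the thermogenic uncoupler of brown fat, and Ucp3, that of muscle, had 0 counts in every library. The 4 adipocyte markers summed to 7.97 CPM in ob, 4.10 in NASH, 0.947 in db and 2.32 in wild-type. Among them, Plin1 had 0 counts throughout, Cidea had 11 counts in ob, 0 in NASH, 0 in db and 1 in wild-type, and Adipoq had 2 counts in NASH and 0 elsewhere. The 6 striated muscle markers summed to 1.33 CPM in ob, 2.05 in NASH, 8.52 in db and 16.2 in wild-type.

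Slc25a46, a family member of the outer membrane that takes part in mitochondrial fission, was lower in every model, though under plain library totals the log2 difference in ob was only -0.35. It had 11 counts in ob, 1 in NASH, 5 in db and 9 in wild-type, or 7.31, 2.05, 4.73 and 20.9 CPM in those libraries. The fold was 2.86-fold lower in ob (1.05 to 7.58), 10.2-fold lower in NASH (1.41 to 446) and 4.41-fold lower in db (1.33 to 16.7).

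The 27 members under 10 counts in every library summed to 84 counts in ob, 22 in NASH, 34 in db and 17 in wild-type. On the scaled level this was 55.8 CPM in ob (44.5 to 69.1), 45.1 in NASH (28.3 to 68.3), 32.2 in db (22.3 to 45.0) and 39.4 in wild-type (23 to 63.1). The fold over wild-type was 1.42 in ob (0.834 to 2.54) and 1.14 in NASH (0.580 to 2.3), and 1.22-fold lower in db (0.641 to 2.25). Ucp1, Ucp3, Slc25a41 and Slc25a43 had no count at all. Each of the last 3 neighbours a counted member on its chromosome. Ucp3 ends 6904 bases before Ucp2 on chromosome 7, Slc25a43 ends 18448 bases before Slc25a5 on chromosome X, and Slc25a41 ends 2056 bases before Slc25a23 on chromosome 17.

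Carriers that the symbol rule left out change the family's sum in ob. Slc25a22, a mitochondrial glutamate carrier, is typed as a polymorphic pseudogene in the table, and had 77 counts in ob, 2 in NASH, 18 in db and 5 in wild-type. It was 4.41-fold higher in ob (1.81 to 14), 2.83-fold lower in NASH (0.463 to 29.7) and 1.47-fold in db (0.526 to 5.07). Mcart1, now called Slc25a51, imports NAD into mitochondria and had 59 counts in ob, 7 in NASH, 12 in db and 1 in wild-type. It was 16.9-fold higher in ob (2.92 to 679), 6.19-fold in NASH (0.796 to 279) and 4.90-fold in db (0.725 to 210). Mcart6, now Slc25a53, had 1 count in ob, 1 in NASH, 0 in db and 0 in wild-type. With these 3 genes the sum of 47 carriers was 1.42-fold higher in ob than in wild-type (1.18 to 1.71), 1.07-fold in NASH (0.849 to 1.35) and 1.25-fold in db (1.03 to 1.53).

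The machinery that inserts carriers into the inner membrane had its lowest summed level in ob under TMM scaling. Its 13 genes (the TOM receptors and pore, the small TIM chaperones, and the TIM22 complex) summed to 44.5 CPM in ob (34.5 to 56.5), 69.7 in NASH (48.3 to 97.4), 89.0 in db (71.9 to 109) and 95 in wild-type (68.2 to 129). The raw counts were 67 of 1000306 in ob, 34 of 529815 in NASH, 94 of 1005915 in db and 41 of 627890 in wild-type. Over these plain library totals ob was not the lowest library. The sum was not put through the remaining scalings. Only 4 of the 13 passed the filter, of which ob had 1 at 2-fold or more above wild-type and 2 below, NASH 1 higher and 2 lower, and db 1 higher and 1 lower. With 4 genes, these counts cannot be read against the 34.5% of all features higher and 15.5% lower in ob, or the like shares in NASH and db. Tomm20, an import receptor, stood at 8.63 CPM in ob, 10.3 in NASH, 25.6 in db and 23.2 in wild-type. Tomm22, the central receptor of the TOM complex, stood at 7.31 CPM in ob, 14.4 in NASH, 10.4 in db and 34.8 in wild-type. Tomm70a, the receptor that binds carrier precursors, stood at 7.31 CPM in ob, 10.3 in NASH, 20.8 in db and 13.9 in wild-type. Timm29, a subunit of the TIM22 complex, had 7 counts in ob, 1 in NASH, 11 in db and 0 in wild-type.

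Other channels and carrier homologues of the mitochondrial membranes, 11 genes found in the table, summed to 142 CPM in ob (124 to 162), 131 in NASH (101 to 168), 147 in db (125 to 172) and 172 in wild-type (135 to 215). Of these, ob had 3 at 2-fold or more above wild-type and 1 below, NASH 2 higher and 3 lower, and db 2 higher and 3 lower. Over all features the shares higher and lower were 34.5% and 15.5% in ob, 20.3% and 31.8% in NASH, and 28.8% and 21.5% in db. Letm1, an inner membrane protein of cation exchange, had 22 counts in ob, 3 in NASH, 28 in db and 1 in wild-type. Mtch2, a carrier homologue that inserts proteins into the outer membrane, had 27 counts in ob, 3 in NASH, 15 in db and 13 in wild-type. Mpc2, a subunit of the mitochondrial pyruvate carrier, had 26 counts in ob, 3 in NASH, 18 in db and 12 in wild-type. Sfxn1, the serine carrier, had 25 counts in ob, 5 in NASH, 10 in db and 5 in wild-type.

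**Figure D5:**
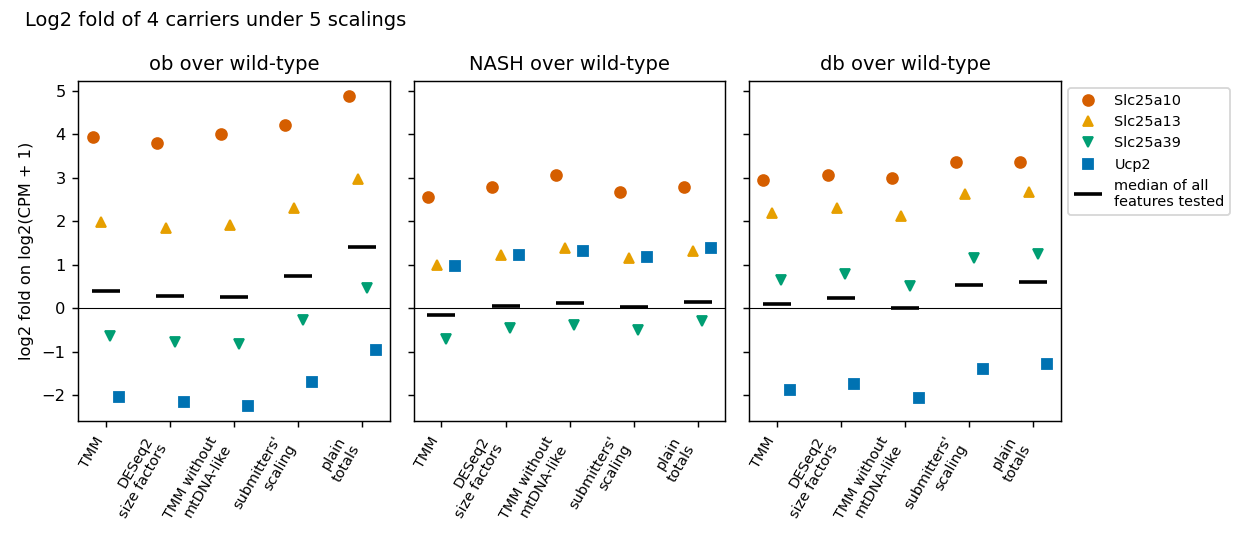
Difference in log2(CPM + 1) from wild-type (y axis) of Slc25a10, Slc25a13, Slc25a39 and Ucp2 in ob, NASH and db under 5 ways of scaling the libraries (x axis), with the median over all features tested as a black bar. Slc25a10 lies above 0 and above the median in every panel and scaling, and Ucp2 in ob lies between -2.24 and -0.96.

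The plot of scalings shows that the choice moved members and all features together. In ob the median over all features was 0.41 under TMM scaling and 1.41 under plain library totals, and Ucp2 stood at -2.04 and -0.96 under the same choices, so its difference from the median stayed and its 2-fold call did not. Slc25a39 in ob changed direction between them, at -0.64 under TMM scaling and 0.46 under plain totals, and it was called under neither. Slc25a16 and Slc25a23 in ob did likewise, at 0.54 and 0.43 under plain totals, and so did Slc25a23 in db, at 0.37. The direction of Slc25a10, Slc25a13 and Ucp2 was the same in all 5 scalings in each of the 3 models.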

How the data were processed

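Per the labels' protocols, total RNA of liver mitochondria was extracted with miRNeasy, depleted of ribosomal RNA and made into strand-keeping NEBNext Ultra Directional libraries, 1 for each of 4 groups. The submitters' processing notes name bcl2fastq 2.20, Trimmomatic 0.32, TopHat2 2.1.1, Bowtie2 2.3.2 and build mm10. Which program counted reads, with which annotation and strand setting, and what became of multi-mapped reads, is not stated by the labels or files used here. Per the file headers, the authors deposited raw expected counts per gene, with fractions, and TMM-normalized log2 values. By their values, the deposited log2 columns are the log2 of the count plus 1 constant per library, and they served only as an alternative scaling. Counts of 21 members in ob, 0 in NASH, 2 in db and 1 in wild-type were not whole to within 0.01.

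The deposited expected counts were rounded to integers. A feature was kept if any library gave it 10 or more counts (5347 features), and TMM factors came from edgeR 4.0.16 in R 4.3.3, at 1.51 in ob, 0.921 in NASH, 1.05 in db and 0.687 in wild-type. DESeq2 1.42.0 gave alternative size factors only. Library totals were 1000306 counts in ob, 529815 in NASH, 1005915 in db and 627890 in wild-type. Folds are ratios of scaled counts with exact binomial 95% intervals, levels have exact Poisson intervals and shares exact Clopper-Pearson ones, computed in Python 3.11.15 with scipy 1.17.1. These intervals hold counting error alone. Without molecular identifiers several reads can stem from 1 molecule, so the intervals may be too narrow even for that error. Against 0 counts the fold is a bound computed with a floor of 3 counts in that library. The bound takes the count of the other library as exact and has no counting interval. The script was tested on simulated data. Transcript lengths are those of the longest coding transcript in GENCODE M21, and promoters are RefSeq's. Slc25a25 and Slc25a47 are not analysed here. All members with at least 10 counts are described singly, those with at least 50 with their position, and other genes come from lists of related genes and markers, up to 4 of a list. The members, roles, marker lists and rules were chosen with earlier results of these data known. Cpt1a, Tat, Cfd and Kcnq1ot1, which the lists name, were not used here. The endothelial markers, 8 genes, summed to 167 CPM in ob, 100.5 in NASH, 232 in db and 116 in wild-type.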

Additional observations from a re-analysis of the deposited data

Results flagged for a closer look

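Slc25a15, the ornithine carrier, and Slc25a16, a carrier linked to coenzyme A, were called in opposite directions, lower than wild-type in NASH and higher in another model. For Slc25a15 log2(CPM + 1) differed from wild-type by 1.39 (ob), -3.36 (NASH) and 2.15 (db). For Slc25a16 it was -3.65 in NASH and 1.31 in db. The difference between models was not tested, since each group has 1 library. NASH had 0 counts of both genes, so its log2 values and the lower calls depend on the pseudocount. Without one, NASH was at least 1.51-fold lower for Slc25a15 and at least 1.88-fold lower for Slc25a16, both under 2-fold. Both values take the wild-type counts as exact. In the same NASH library 8 of 9 hepatocyte markers were at least 2-fold lower, and their part in these values was not tested.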

How the results depend on the processing

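Under plain library totals 11 members were higher and 0 lower in ob, and 7 were higher in NASH. The summed family was then 2.60-fold in ob, 1.41-fold in NASH and 1.86-fold in db over wild-type. Higher members in NASH numbered 7 with DESeq2 size factors (24.1% of all features) and 7 with TMM without the features resembling mtDNA genes (28.5%), against 4 (20.3%) as reported. The submitters' scaling gave 9 higher in ob (41.9% of all features) and 7 in NASH (23%), and sums of 1.54-fold in ob and 1.73-fold in db. A pseudocount of 5 CPM left 1 higher in NASH (10.7%). A minimum of 20 counts left 3 higher and 1 lower in ob (35.4% and 12.9%), 2 higher in NASH (16.3%) and 4 higher in db (36%). With no filter, all 44 members gave 14 higher and 5 lower in ob, and 7 higher and 11 lower in NASH. In db they gave 10 higher and 8 lower. No share over all features was taken, but 22334 protein-coding genes outside the features resembling mtDNA genes were called likewise. Of these, 3906 were higher and 3286 lower in ob, 3456 and 4061 in NASH, and 2795 and 3771 in db. Scaling and filtering without the ob library, chosen after seeing the data, left 3 lower in NASH and 1 lower in db, with a NASH sum of 1.41-fold. The filter settings change which members are counted by construction; otherwise the cause was not tested. Of 78 values for the counts and sums, 53 stayed within their limits and 25 moved. The balance in NASH, 4 higher and 6 lower as reported, turned to 7 and 5 under plain totals, 7 and 6 under DESeq2 size factors, the submitters' scaling and TMM without the features resembling mtDNA genes, and 6 and 3 without the ob library. With counts not rounded, it was even, at 6 higher and 6 lower. Slc25a46 in ob was -0.35 on log2 under plain totals, and Ucp2 in NASH passed the 2-fold call under 5 alternatives, up to 1.39, and Slc25a13 in NASH under 6, up to 1.39. Slc25a39 in db passed it under plain totals (1.25) and the submitters' scaling (1.15), and Slc25a44 in NASH lost it at a pseudocount of 5 CPM (0.61). Slc25a10 was at least 1.68 on log2 in all 3 models under every alternative. No paired analysis was possible because each group has 1 library, and for the same reason none could be left out within a group. Depth limits most members: 4 of 17 reached 10 counts in NASH and 4 in wild-type.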
